A study of Homo sapiens with 6 samples.

Results

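Mitosis and kinetochore genes were described in EndoC-βH3 cells as a list of 60 named genes, chosen for what their proteins do in cell division. A region counted as a gene's promoter region when any part of it lay within 2 kb of where a protein-coding transcript of that gene begins. Distal regions were the others whose midpoint had the gene's start site as its nearest, within 100 kb. All 60 members had a promoter region, out of 15509 protein-coding genes that had one, and 39 members had a distal region. The members held 78 of 20094 promoter regions and 100 of 55158 distal regions within the limit, in a table of 108542 regions.

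EndoC-βH3 is a human pancreatic beta cell line made from fetal tissue and immortalised with telomerase and SV40 large T antigen, a viral protein that binds p53 and the retinoblastoma protein. Both transgenes can be excised by an inducible Cre recombinase. The senescent group had received 4-hydroxytamoxifen (4-OHT) for 3 weeks to do so, and the control, non-senescent group still carried them. Both groups are wild type in the labels, each had 3 libraries of 100000 cells, and nothing in the sources used here says that the libraries came from separate cultures, so p-values may measure technical spread alone. One line is one genetic background, and removal of large T antigen, time on the drug and senescence cannot be told apart.

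During mitosis the duplicated chromosomes condense, attach to the spindle through kinetochores built on centromeric chromatin, and are pulled apart once the spindle checkpoint is satisfied. CDK1 with its cyclins drives entry, the Polo and Aurora kinases order the steps, and ubiquitination by the anaphase-promoting complex ends them. Many of these genes are transcribed in the G2 phase and are held down in arrested cells by the DREAM complex, which is recruited through the cell cycle homology region (CHR) of their promoters. NF-Y binds CCAAT boxes beside it.

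ATAC-seq counts reads where a transposase can reach the DNA. The deposited table gives each region a mean signal, which is the normalised read count averaged over the libraries, and a log2 fold change with its standard error (SE) from the authors' DESeq2 fit. Values of single libraries and their depth could not be given, because the table has no column for a library. Regions were called where that fit gave an adjusted p under 0.05 and the fold change exceeded 1.5. The table does not name the numerator, which was read from the study's wording as the senescent group, so every direction here rests on that reading. Promoters of direct p53 targets gave no firm check, with 2 of 26 strongest regions called higher (PHLDA3 and BBC3, 7.69% against 1.39% of all genes) and 1 called lower (FAS, 3.85% against 7.01%). Of all 34 promoter regions of these targets, 5 were called higher and 2 lower, against 3.56% and 9.04% of all promoter regions. Of their 56 distal regions, 8 were called higher and 4 lower, against 17.4% and 10.9% of all distal regions within 100 kb. An earlier reading of these data also weighed the MKI67 promoter, so the members' direction is not independent of the choice.

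The labelled cell type was compared with marker promoters. All 8 beta cell markers had a promoter region, with a mean signal of 405 to 7894. Of 7 fibroblast markers, 4 had one, at 17.6 to 142, and of 5 immune markers 2 had one, at 43.1 and 644.

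Promoter sequence upstream of the start site is shown for the members with the strongest called falls and for MKI67, because it holds the elements through which such genes are known to be regulated. The sequences are from RefSeq (GRCh38.p14), run 5′ to 3′ on the strand of the gene up to the base before its start, and leave out bases covered by an annotated protein-coding exon. Capitals mark the CHR (TTTGAA or TTCGAA), the CCAAT box and the E2F site (GGCGGGAA or TTTGGCGC), on either strand. AURKB is not shown, since an annotated exon covers the bases just before its RefSeq start.
PLK1, chr16:23678639-23678888, plus strand: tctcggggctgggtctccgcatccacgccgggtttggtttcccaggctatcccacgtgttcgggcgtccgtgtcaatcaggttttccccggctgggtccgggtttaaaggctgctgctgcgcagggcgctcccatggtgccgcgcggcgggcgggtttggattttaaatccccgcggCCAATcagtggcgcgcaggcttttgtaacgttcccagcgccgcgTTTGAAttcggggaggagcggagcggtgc
ESPL1, chr12:53268049-53268298, plus strand: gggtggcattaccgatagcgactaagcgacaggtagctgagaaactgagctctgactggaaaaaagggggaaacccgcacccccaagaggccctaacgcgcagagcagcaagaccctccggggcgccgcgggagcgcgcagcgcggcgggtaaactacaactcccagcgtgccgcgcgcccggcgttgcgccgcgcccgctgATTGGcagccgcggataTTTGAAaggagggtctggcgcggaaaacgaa
SPC25, chr2:168890431-168890528, minus strand: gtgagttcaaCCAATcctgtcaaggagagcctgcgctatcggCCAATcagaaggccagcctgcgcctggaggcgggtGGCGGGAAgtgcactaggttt
NDC80, chr18:2571510-2571556, plus strand: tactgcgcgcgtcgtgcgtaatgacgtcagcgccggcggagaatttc
MKI67, chr10:128126424-128126673, minus strand: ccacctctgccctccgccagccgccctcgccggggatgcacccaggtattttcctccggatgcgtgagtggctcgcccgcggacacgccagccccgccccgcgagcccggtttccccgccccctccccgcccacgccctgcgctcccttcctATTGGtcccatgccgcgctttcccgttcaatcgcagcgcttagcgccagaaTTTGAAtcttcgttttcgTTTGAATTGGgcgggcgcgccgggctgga
In PLK1 the CHR began 29 bases before the start and the CCAAT box 73 bases before it. In ESPL1 they began 31 and 48 bases before it, with the CCAAT box on the other strand. MKI67 had a CHR at 47 and another at 29 bases, and 2 CCAAT boxes on the other strand. The part shown of SPC25 had 2 CCAAT boxes and an E2F site but no CHR, and the short part shown of NDC80 had none of these motifs. Both have a CHR elsewhere in the 300 bases around the start, outside the part shown.

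Promoters of 49 of the 60 members were less accessible in senescent cells by the p threshold alone, most by under 1.5-fold. Over the strongest promoter region of each member, meaning the one of highest mean signal, the median log2 fold change was -0.32, against -0.14 over all genes. 8 of the 60 were called lower, or 13.3%, against a background of 7.01% of all genes. Without the fold limit the 49 made up 81.7%, against 39.8% of all genes. Only KIF4B was called higher, or 1.67% of the members against 1.39% of all genes, and without the fold limit 1.67% were higher against 8.23%. A stricter Wald test of a 1.5-fold change called 4 of the strongest promoters lower. The share of all genes under that test is not given here, so the 4 cannot be set against a background.

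**Figure D1:**
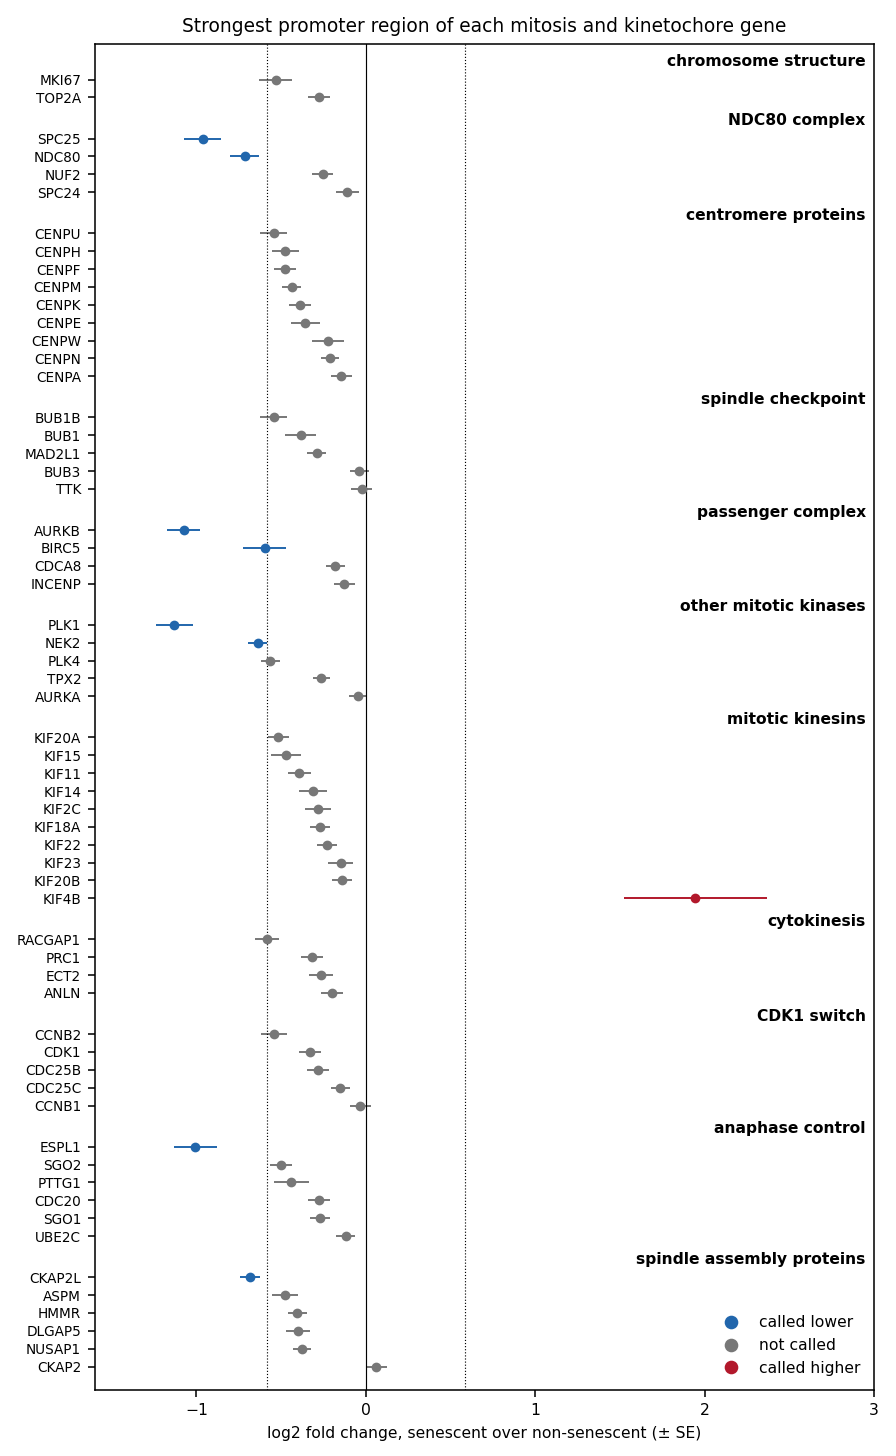
Log2 fold change (x axis, senescent over non-senescent, bars ± SE of the authors' fit) of the strongest promoter region of each of the 60 members, grouped by role. Dotted lines mark a 1.5-fold change, blue points are the 8 called lower, the red point is KIF4B, and nearly all grey points lie left of 0.

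The fold change of promoters varied with signal across the table, and the members' promoters were stronger than most, with a median mean signal of 1288 against 840 for all genes. Members were therefore set beside other genes of like signal. Between 250 and 600 in mean signal, 11 members had a median log2 fold change of -0.60 against -0.15 for 2984 other genes, and 6 of the 11 were called lower (54.5% against 10.1%). Between 600 and 1000, 9 members had a median of -0.48 against -0.13, and 0 of 9 were called lower (against 3.25%). Between 1000 and 1500, 21 members had a median of -0.28 against -0.13, and 1 was called lower (4.76% against 1.25%). From 1500 to 2000, 1 of 13 was called lower (7.69% against 0.538%). Above 2000, 5 members had -0.21 against -0.10, and 0 of 5 were called lower (against 0.398%). Under 250 the only member was KIF4B. With other genes weighted to the members' signal, 42.1% were lower without a fold limit, against 81.7% of members, and 3.31% were lower past the fold limit, against 13.3%. GC content also differed, with a median of 58.0% in members and 62.9% over all genes. With the trend on GC removed the members' median was -0.26, and with the trend on mean signal removed it was -0.21. Removing the latter ended the calls of NDC80, NEK2, BIRC5 and CKAP2L and left 4 strongest promoters called lower. No share of all genes at that setting is given here. The same removal turned the values of SPC24, TTK, AURKA and CCNB1, all near 0, to above 0.

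**Figure D2:**
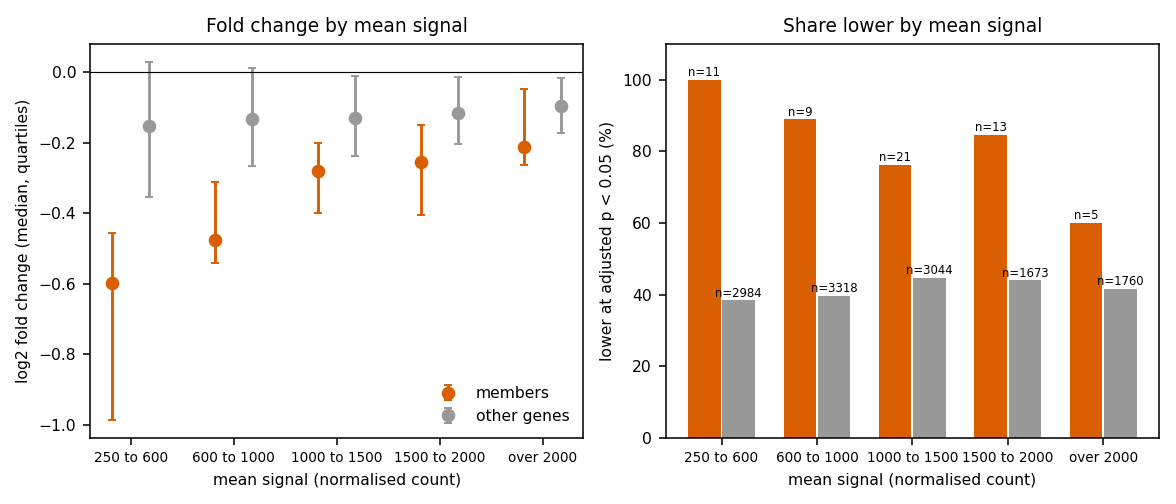
Left, median log2 fold change with quartiles by class of mean signal (normalised count) for members and other genes. Right, the share lower at an adjusted p under 0.05 without a fold limit; members lie below other genes in the left panel and above them in the right panel in each of the 5 classes drawn, which leave out signals under 250, where KIF4B is the only member.

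The kinases that order mitosis included the lowest value. PLK1, the Polo kinase of mitotic entry and spindle formation, had a log2 fold change of -1.13 ± 0.11 (SE) at its start site (chr16:23678438-23679693, mean signal 359, adjusted p = 4.3e-24). A second, upstream PLK1 region, whose midpoint lay at -1767 bases from the start in the untranslated sequence of the neighbouring DCTN5, went the other way, with 1.74 ± 0.18 (adjusted p = 1.95e-20). NEK2, a centrosomal kinase, fell by 0.64 ± 0.06 on the log2 scale (adjusted p = 1.0e-27). The centriole kinase PLK4 was just short of the fold limit, at -0.56 ± 0.06. AURKA, the centrosomal Aurora kinase, had -0.05 ± 0.05 (adjusted p = 0.466), in a region it shares with CSTF1. Aurora kinases thus gave unlike values, since AURKB was among the lowest.

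AURKB is the kinase of the chromosomal passenger complex, which corrects faulty kinetochore attachments. Its promoter (chr17:8209902-8211049) fell by 1.08 ± 0.10 on the log2 scale (adjusted p = 1.98e-26). BIRC5, or survivin, fell by 0.60 ± 0.13 (adjusted p = 2.06e-05), just past the fold limit. The scaffold INCENP had -0.13 ± 0.06 (adjusted p = 0.086), so the partners of one complex did not share one value. CDCA8 was lower only without the fold limit, at -0.18 ± 0.06.

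The NDC80 complex is the arm of the kinetochore that grips microtubules. SPC25 fell by 0.96 ± 0.11 on the log2 scale (chr2:168889792-168891008, adjusted p = 1.85e-16) and NDC80 had -0.72 ± 0.09 (chr18:2570784-2572188, adjusted p = 4.79e-15). SPC24 had -0.11 ± 0.07 (adjusted p = 0.194) and NUF2, lower without the fold limit, -0.25 ± 0.06. The NDC80 region also covers the promoter window of METTL4, so the value cannot be given to one gene. SPC25 had a second start site with a region that fell as well, by 0.69 ± 0.21 (adjusted p = 0.00288).

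Centromere proteins, which include parts of the inner kinetochore and the outer kinetochore proteins CENPE and CENPF, had a median of -0.39. None of the 9 was called, while 8 of 9 were lower without the fold limit (88.9% against 39.8% of all genes). CENPU was lowest at -0.55 ± 0.08, and CENPA, the histone variant that marks the centromere, was highest at -0.15 ± 0.06 (adjusted p = 0.0507). Of the 5 spindle checkpoint genes, 3 were lower without the fold limit (60%, against the same 39.8%) and none was called. BUB1B, the BUBR1 component of the checkpoint complex, had -0.55 ± 0.08, and the checkpoint kinase TTK -0.02 ± 0.06 (adjusted p = 0.782).

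Genes of the metaphase to anaphase step were led by ESPL1, or separase, the protease that cuts cohesin. Its promoter (chr12:53267715-53269012) fell by 1.01 ± 0.13 on the log2 scale (adjusted p = 5.79e-14). The other 5 members of this role were not called, from SGO2, a protector of centromeric cohesin, at -0.50 ± 0.07 to the ubiquitin-conjugating enzyme UBE2C at -0.12 ± 0.06 (adjusted p = 0.0769). Among the CDK1 switch genes none of 5 was called and 4 were lower without the fold limit (80% against 39.8% of all genes). CCNB2 had -0.54 ± 0.08 and CCNB1, the other B-type cyclin, -0.03 ± 0.06 (adjusted p = 0.701).

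Of 6 spindle assembly proteins, CKAP2L, which binds spindle microtubules, was called lower, with -0.68 ± 0.06 (adjusted p = 2.04e-27). Its relative CKAP2 was the only member apart from KIF4B with a value above 0, at 0.06 ± 0.06 (adjusted p = 0.441). All 4 cytokinesis genes were lower without the fold limit (100% against 39.8% of all genes). They ranged from RACGAP1, a subunit of centralspindlin, at -0.58 ± 0.07 to the contractile ring protein ANLN at -0.20 ± 0.07. A weaker RACGAP1 region over another of its start sites (chr12:50016659-50017515) had 0.58 ± 0.14 (adjusted p = 0.000133), just short of the fold limit. MKI67, the proliferation marker that coats mitotic chromosomes, had -0.53 ± 0.10 (adjusted p = 4.61e-07), and TOP2A, the topoisomerase that untangles them, -0.28 ± 0.07.

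Mitotic kinesins are motor proteins of the spindle. Of the 10, 8 were lower without the fold limit (80% against 39.8% of all genes). None was called lower, and KIF20A was lowest at -0.52 ± 0.06. KIF20A passed the fold limit once the GC trend was removed, at -0.61. KIF4B was called higher, with 1.94 ± 0.42 (adjusted p = 2.56e-05), but its single promoter region had a mean signal of 24.5. The midpoint of that region lay in a coding exon of KIF4B, 1113 bases from the start site, which the region did not cover. KIF4B was the only member whose strongest region covered no start site of its own. The strongest KIF11 region covered an annotated KIF11 start site, but its midpoint lay in a coding exon of IDE, whose promoter window it shares. The other KIF11 region, over another KIF11 start site (chr10:92591444-92593520), had -0.32 ± 0.06. In all, 14 members had a strongest region that lay in the promoter window of another gene, with a median of -0.38, against -0.32 for the 46 that did not.

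Of all 78 promoter regions, 12 were called lower (15.4% against 9.04% of all promoter regions) and 3 higher (3.85% against 3.56%). Several of these were weak regions just inside the gene. The second regions of NDC80, MKI67 and CENPF, each in an intron just downstream of the start, had log2 fold changes of -1.97 ± 0.44, -1.35 ± 0.30 and -1.10 ± 0.25, at mean signals of 23.0, 43.5 and 66.5. These values were lower than those of the same genes' strongest regions. HMMR, a spindle protein, had a stronger region there with -0.54 ± 0.08. Among 1076 regions of other genes placed likewise, 0.5 to 1.5 kb downstream of the canonical start and not the strongest, the median was -0.20 and 14.7% were called lower. This class of region was chosen after its values were seen. The third called rise, of SGO2, had 0.73 ± 0.20 (adjusted p = 0.000924).

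Values at the limits of the assignment were mixed. The SGO2 region was the last inside the 2 kb window, with its edge 1941 bases from a start site, and a CENPM region with its edge at 2281 bases was the first outside it, with -0.96 ± 0.21. The farthest distal region, of KIF14, lay 99430 bases from the start and had -0.22 ± 0.06, and the nearest one beyond 100 kb, of KIF4B, lay 102994 bases away and had -0.07 ± 0.30.

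Distal regions had a median of the opposite sign to the promoters. The median log2 fold change of the 100 distal regions was 0.16, against 0.03 over all distal regions within 100 kb. 27 were called higher (27% against 17.4%) and 11 lower (11% against 10.9%). At like mean signal, 17.0% of other distal regions were higher and 10.8% lower. GC content differed here too, with a median of 45.1% against 47.0% over all distal regions within 100 kb. With the trend on GC removed the members' distal median was 0.08, against -0.01 over all. At that setting 21 were called higher, for which no background share is given here. Of the 39 members with a distal region, 19 had one called higher and 8 had one called lower, with 3 members in both sets. These counts depend on how many distal regions a gene has, and no share over all genes is given here for them. With the nearest start site of any gene, coding or not, the members kept 33 distal regions, of which 12 were called higher (36.4% against 18.7% of all regions so assigned) and 3 lower (9.09% against 11.2%). Assignment by distance does not show which gene a region acts on.

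**Figure D3:**
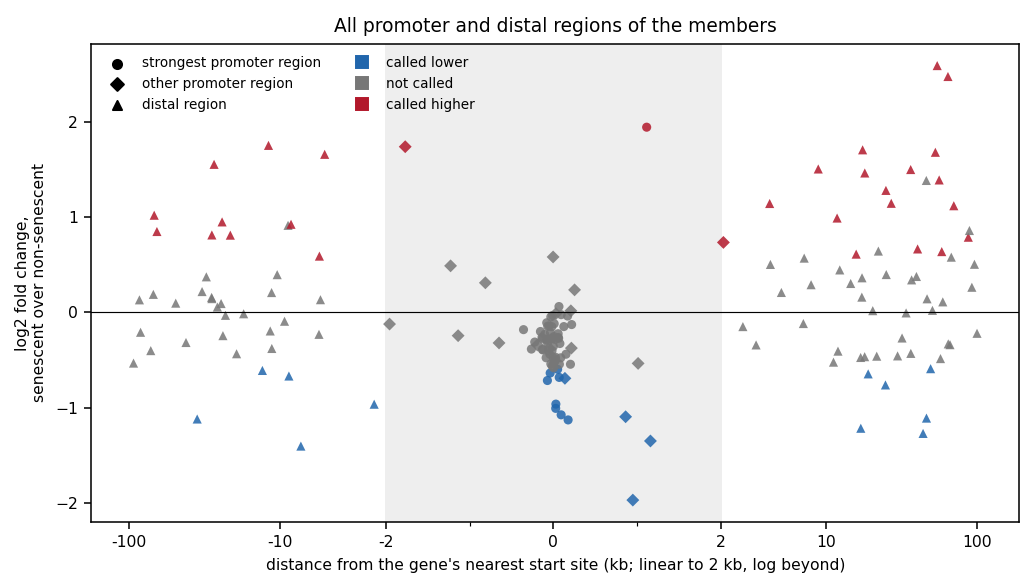
Log2 fold change of every promoter and distal region of the members (y axis) by distance of its midpoint from the gene's nearest start site (x axis, kb, linear to 2 kb and logarithmic beyond, positive downstream). The strongest promoter regions (circles) crowd below 0 at the start site, while the 27 distal rises (red triangles) outnumber the 11 distal falls (blue triangles) on both sides.

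Among distal rises of at least 50 in mean signal, the highest were near RACGAP1, NUF2, CENPF, CKAP2 and NEK2. The RACGAP1 region lay in an intron of the gene (chr12:50004456-50005165) and had 1.66 ± 0.22 (adjusted p = 6.87e-13). The NUF2 region, in introns of both NUF2 and RGS5, had 1.51 ± 0.21 (adjusted p = 1.31e-11). Its midpoint lay 8819 bases from a NUF2 start site other than the one in the strongest NUF2 promoter region. CENPF had a region of 1.39 ± 0.19 in a coding exon (adjusted p = 7.53e-12). Outside protein-coding transcripts, the CKAP2 region had 1.28 ± 0.11 (chr13:52480458-52481089, adjusted p = 3.17e-30) and the NEK2 region 1.15 ± 0.12 (chr1:211648284-211649108, adjusted p = 1.65e-19). The strongest promoter regions of RACGAP1, NUF2, CENPF and NEK2 had values below 0, and that of CKAP2 had 0.06. Values below 0 were common, in 58 of the 60 members and 11539 of 15509 genes.

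The lowest distal values at that signal included regions near RACGAP1, PTTG1, CENPM and KIF2C. A second intronic RACGAP1 region (chr12:50006791-50007272), beside the rising one, fell by 1.40 ± 0.24 on the log2 scale (adjusted p = 5.18e-08). PTTG1, or securin, which holds separase inactive, had -1.11 ± 0.27 (adjusted p = 0.000251). Another 3 of its 7 distal regions were called higher, against 17.4% of all distal regions, but at mean signals of only 17.5 to 38.6. KIF2C, a microtubule depolymerase, had -0.67 ± 0.23 (adjusted p = 0.0109). Distal regions inside the member's own gene had a median of 0.45, with 9 of 22 called higher (40.9% against 19.1% of such regions of other genes). Those outside it had a median of 0.13, with 18 of 78 called higher (23.1% against 15.6%). The difference between these shares was not tested.

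Other cell cycle lists gave a frame for these values. In 63 further mitotic genes the median was -0.32. There, 8 were called lower (12.7% against 7.01% of all genes) and 47 were lower without the fold limit (74.6% against 39.8%). The lowest were PBK, a mitotic kinase, at -0.82 ± 0.14, KIF18B, a kinesin, at -0.78 ± 0.07 and the kinase gene MELK at -0.77 ± 0.11. In 45 DNA replication genes the median was -0.28, with 5 called lower (11.1%) and 36 lower without the fold limit (80%). DNA2, a helicase and nuclease, had -0.98 ± 0.10, POLA2, of DNA polymerase alpha, -0.77 ± 0.09, and RFC4, of the clamp loader, -0.66 ± 0.08. In the 16 subunits of the anaphase-promoting complex, the median was -0.16 and none was called. Without the fold limit 7 were lower (43.8%, near the 39.8% of all genes). The difference between the members and these lists was not tested.

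Promoter motifs, which the choice of members did not use, were counted next. RefSeq gave a promoter of 300 bases, 250 before and 50 after the start, for 51 of the 60 members and for 12336 genes with a promoter region. In 49 of the 51 members that start lay inside the strongest promoter region. A CHR was found in 39 of 51 members (76.5%) and 10.7% of all genes, and a CCAAT box in 42 of 51 (82.4%) and 35.9%. Both were present in 64.7% of members and 4.58% of all genes. In 48 further mitotic genes the shares were 60.4% for the CHR, 66.7% for the CCAAT box and 47.9% for both. The E2F letters were found in 9.80% of members and 6.10% of all genes, against 42.1% of 38 DNA replication genes, of which 5.26% had a CHR. The forkhead letters (TGTTTAC) were found in 0 of 51 members and 2.14% of all genes.

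**Figure D4:**
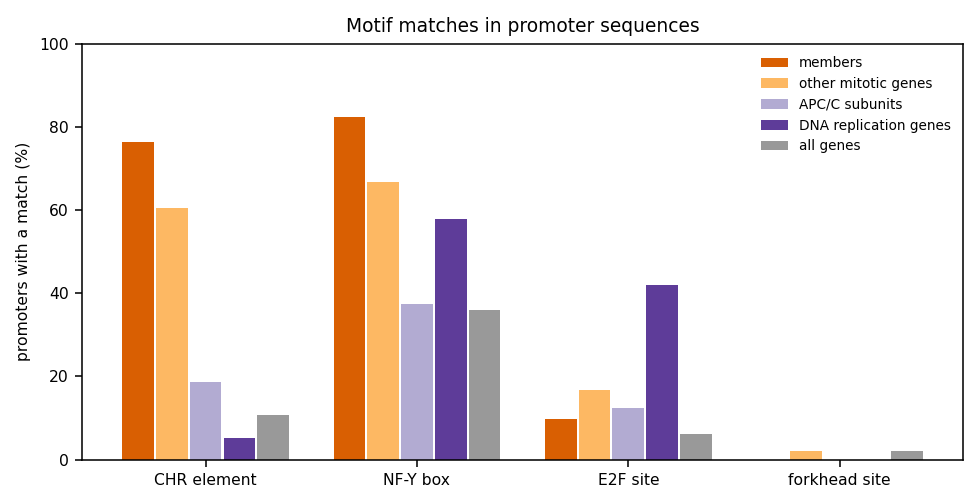
Share of promoters (y axis, %) with a match to each of 4 motifs on either strand, for members, 3 related gene lists and all genes. The CHR element is in 76.5% of members and 10.7% of all genes, and the E2F site is most frequent in DNA replication genes, at 42.1%.

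Among members the median fall was no larger with a CHR or a CCAAT box than without. The median log2 fold change was -0.31 in the 39 members with a CHR and -0.41 in the 12 without. By count, 35 of the 39 and 9 of the 12 were lower without the fold limit. Among all genes, 617 of 1318 with a CHR and 4360 of 11018 without one were lower at that setting. Over all genes the median was -0.17 with a CHR and -0.13 without. AURKB and NEK2, both called lower, had no CHR in this window, which for AURKB starts inside the gene, nor did CCNB1 and CKAP2, whose values lay near 0. With a CCAAT box the median was -0.32 and without it -0.36. These medians are descriptions of short windows, and a match is not a bound site.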

How the data were processed

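ATAC-seq libraries of EndoC-βH3 cells (3 senescent, 3 non-senescent, grouped by their titles) were used through 1 deposited table. Upstream, the authors used Trim Galore for trimming and Bowtie2 for alignment to hg38. Duplicate and mitochondrial reads were discarded, read positions were corrected for the transposase offset, and MACS2 gave the peaks. The authors compared counts over merged peaks with DESeq2, and tool versions are not given in the sources used here. The authors' mean signal is a normalised count averaged over all libraries. The deposited log2 fold change and its SE are log2 values of that fit, the deposited score is its Wald statistic, and the deposited p-value and adjusted p-value belong to it. Those columns are the only values deposited, so they were used as they stand. The table holds no value per library, so depth is unknown and precision is given as the SE.

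Regions were assigned with GENCODE 44 (GRCh38), with deposited starts read as counted from 0. All 24 chromosomes of the table were in the reference and 0 regions passed a chromosome end. A trend was removed with a running median with 1000 neighbouring regions on each side. Medians were read as moved when they changed by more than the median SE of the members. Named were members whose strongest promoter was called, the lowest and highest of each role, members with another called promoter region, MKI67, the 5 lowest and 5 highest called distal regions of at least 50 in mean signal, and the 3 lowest called of each related list. One of the 5 lowest distal regions is counted but not reported here. Other members were added as context after their values were seen. Sequences were chosen for the 5 lowest and MKI67, and that of AURKB was left out because an exon covers it. The members and lists were chosen with earlier results of these data known. Alternatives were stricter and looser calls, a Wald test of a 1.5-fold change, a signal minimum, centring, both trends, other windows, start sites and distances, and a mean over the promoter regions of a gene. Steps were tested on simulated data. Python 3.11.15, pandas 2.3.3, numpy 2.4.6, scipy 1.17.1 and pysam 0.24.0 were used.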

Additional observations from a re-analysis of the deposited data

How the results depend on the processing

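Of 66 alternative values of the counts and medians, 49 stayed within 1.5 times the count or within the median SE of the members' regions. For distal regions that SE, 0.22, exceeds the median itself, 0.16, so a fall of that median to 0 would also count as staying. Among the medians 0 changed sign, and a count cannot change sign. Without a fold limit, promoter regions called lower numbered 57 (73.1% against 34.7% of all promoter regions) and higher 6 (7.69% against 10.2%). Strongest promoters called lower numbered 49 (81.7% against 39.8% of all genes), and distal regions called lower 22 (22% against 19.7% of all within 100 kb). When a Wald test asked for more than a 1.5-fold change, promoter regions called lower numbered 5, strongest promoters 4, and distal regions 1 lower and 10 higher. At a mean signal of at least 50, 7 distal regions were lower and 16 higher. In classes of 50 to 100, 100 to 250 and over 250, 29.4%, 17.4% and 28% of members' distal regions were called higher. For other distal regions the shares were 22.7%, 14.8% and 6.80%. Lower calls made up 17.6%, 8.70% and 8% of members' regions in these classes, against 11.7%, 14.1% and 11.8% of others. With the trend on mean signal removed, 4 strongest promoters were lower and the promoter median was -0.21. The promoter window of 1 kb held 1 region called higher, and that of 0.5 kb held 0 called higher and 9 lower. For the Wald test, the removed trends and these windows, no share over all regions or genes is given here. With the nearest start site of any gene, distal regions numbered 3 lower and 12 higher with a median of 0.38. Among members near 0, removal of the trend on mean signal turned the sign for SPC24 (0.011), TTK (0.0986), AURKA (0.0503) and CCNB1 (0.0846), and removal of that on GC did so for SPC24 (0.0253), TTK (0.0307), AURKA (0.0563), CCNB1 (0.119) and UBE2C (0.00602). The calls of NDC80, NEK2, BIRC5 and CKAP2L were lost once the signal trend was removed, and those of NEK2 and BIRC5 also with that on GC removed. Removal of the GC trend gained a call for KIF20A (-0.61), and centring gained one for RACGAP1 (-0.59). The cause was not tested. No paired analysis was possible because values per library are missing from the table, and alternatives that leave out a library were not run for the same reason. The SE of the fold change limits what can be seen in weak regions.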
